A study of Danio rerio with 20 samples.

Results

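The 201 probes described here differed between *rnaset2* mutant and wild type (WT) sibling zebrafish at 3 days postfertilization (dpf) and by less than 2-fold on average before and after. They were chosen from 43603 probes (0.461%) by a rule on the deposited intensities. For each stage, the mean log2 intensity of WT siblings was subtracted from that of mutants. The difference had to be at least 3, which is 8-fold, at 3 dpf. Its size had to stay under 1 at 28 hr postfertilization (hpf) and in adult brain. Every 3 dpf mutant array had to exceed every 3 dpf WT array, and the mean intensity of 3 dpf mutants had to reach 100. The differences between mutants and WT siblings are therefore given as a description. Counts of probes passing an adjusted p and confidence intervals are printed for them, but are not used as tests of these probes.

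RNA was measured on 20 one-colour Agilent expression arrays, on which each probe is a short DNA strand that binds one labelled transcript. The mutants carried the *rnaset2* AO127 allele, made by chemical (ENU) mutagenesis, and the controls were WT siblings. Whole embryos were pooled at 28 hpf (4 mutant and 4 WT samples) and at 3 dpf (3 and 3), and whole brains were dissected from adults 1 year old (3 and 3). For these samples the sources used here give neither zygosity nor sex, nor how many embryos made a pool. One label field gives the youngest samples as 28 dpf, while the titles, the source names and the paper give 28 hpf, which was used.

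RNaseT2 is a ribonuclease of the lysosome, the compartment in which cells break down their own and engulfed material, and its loss leads to storage of ribosomal RNA there. In people, deficiency causes a leukoencephalopathy, a disease of brain white matter with onset in infancy. Between 28 hpf and 3 dpf a zebrafish embryo hatches, most organs become functional and macrophages enter the brain to become microglia. What these transcripts encode, and whether *rnaset2* itself was lower in mutants, was not analysed, because gene names could not be attached to the probes. Results are given by probe, only 2 probes are named by ID, and several probes can measure one gene.

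The arrays had been quantile normalized by the authors, which gives all of them nearly the same distribution, with a median intensity of 257.7 or 257.8 and a lowest value of 2.14. Background readings were not used here, and a low reading may lie above or below background. At 28 hpf each genotype has samples numbered 1 and 1.1. Over all probes, the log2 differences between samples 1 and 1.1 of the mutants had a standard deviation (SD) of 0.325, where other mutant pairs gave 0.337 to 0.398. The WT samples 1 and 1.1 gave 0.389, and other WT pairs 0.392 to 0.457. They were kept as separate samples, and whether 1.1 repeats sample 1 was not tested. The paper calls the samples of a stage biological repeats. Each p-value and standard error rests on the spread between samples of a group, pooled for each probe over all 6 groups. It is not the spread of the compared groups alone.

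At 3 dpf the 201 probes read high on all 3 mutant arrays. The median intensity over the probes was 614, 718 and 658 on the 3 mutant arrays and 29.2, 27.9 and 31.6 on the 3 WT arrays. The groups did not overlap, and the medians of WT larvae lay close to those of 28 hpf embryos, which ran from 22.0 to 24.9 over the 8 arrays of both genotypes. In adult brain the medians were 35.9, 36.0 and 41.4 in mutants and 49.4, 41.2 and 37.3 in WT siblings, so the genotypes overlapped there. Whether more RNA per cell or more cells of a kind gave the high level cannot be told apart in whole embryos.

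**Figure D1:**
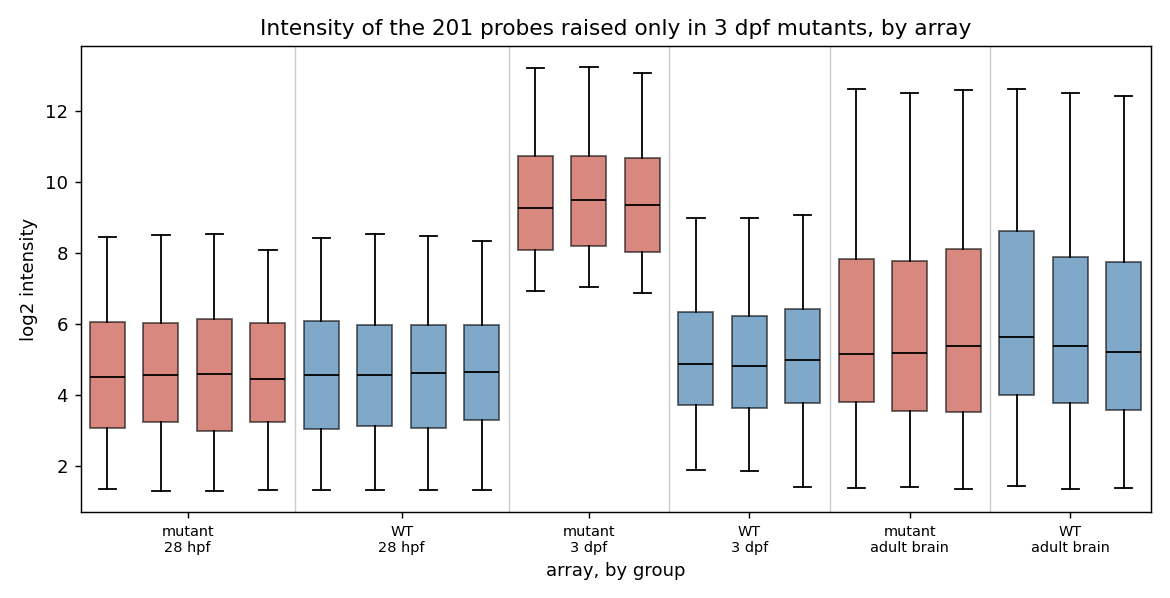
Log2 intensity (vertical axis) of the 201 probes on each of the 20 arrays (horizontal axis), with mutants in red and WT siblings in blue. Boxes span the quartiles with the median as a line, and whiskers run from the 5th to the 95th percentile. The 3 mutant arrays at 3 dpf stand above all others, with median intensities from 614 to 718.

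The difference at 3 dpf ran from 3.00 to 9.24 on the log2 scale, with a median of 4.16. It lay between 3 and 4 for 86 probes, between 4 and 5 for 62, between 5 and 6 for 26, between 6 and 7 for 16 and above 7 for 11. The values thus pile up at the lower limit and thin out towards large differences. Over all probes the median difference at 3 dpf was -0.078. All 201 probes were higher in mutants at an adjusted p under 0.05 in the fit of all 43603 probes with limma, but the rule fixed that result. Of all probes 53.9% passed, 23.0% higher and 30.8% lower in mutants. The 3 mutant arrays lay above the 3 WT arrays for 27.4% of all probes.

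The limits of the rule cut through a continuous range. The smallest 3 dpf difference inside was 3.00 and the largest outside 2.99, and 207 further probes with a difference between 2 and 3 met every other criterion. The lowest mean intensity inside was 100.1 and the highest outside 98.2, with 57 probes missing only that minimum. At 28 hpf the largest size of difference inside was 0.98 and the smallest outside 1.01, and in adult brain these were 0.99 and 1.01. The limit at 28 hpf alone kept out 50 probes, that in adult brain 105, and the separation of the arrays 1.

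Of the 478 probes at least 8-fold higher in 3 dpf mutants, 379 stayed within the limit at 28 hpf and 259 within both limits. The separation of the arrays left 258 and the minimum intensity left 201. Among the 478, 68 were also higher by 1 or more on the log2 scale in mutant adult brain, and 92 were lower there by as much. At 28 hpf 69 were higher by 1 or more and 30 were lower. Such shifts are what kept these probes out. The share of all probes that shifted as far was not counted, so nothing is read from these numbers.

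The mirrored rule, with the 3 dpf WT arrays on the high side, found 24 probes. Moved to adult brain, the rule found 49 probes raised only in mutant brains and 17 lowered only there. Moved to 28 hpf, it found 0 raised and 4 lowered. These counts are set by the same thresholds at each stage, but a group at 28 hpf holds 4 arrays rather than 3, and no test of the differences between the counts was made.

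The difference of a dim probe on the log2 scale depends on where the bottom of the intensity scale lies. In WT larvae 40 of the 201 probes had a mean intensity under 10, and 181 lay under the array median. On log2 of the intensity plus 50, the median difference at 3 dpf was 2.85 in place of 4.16, and 95 of the 201 probes still reached 3. All 201 kept a difference above 1 on that scale. Applied on that scale to the whole table, the rule gave 143 probes, 95 of them among the 201.

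**Figure D2:**
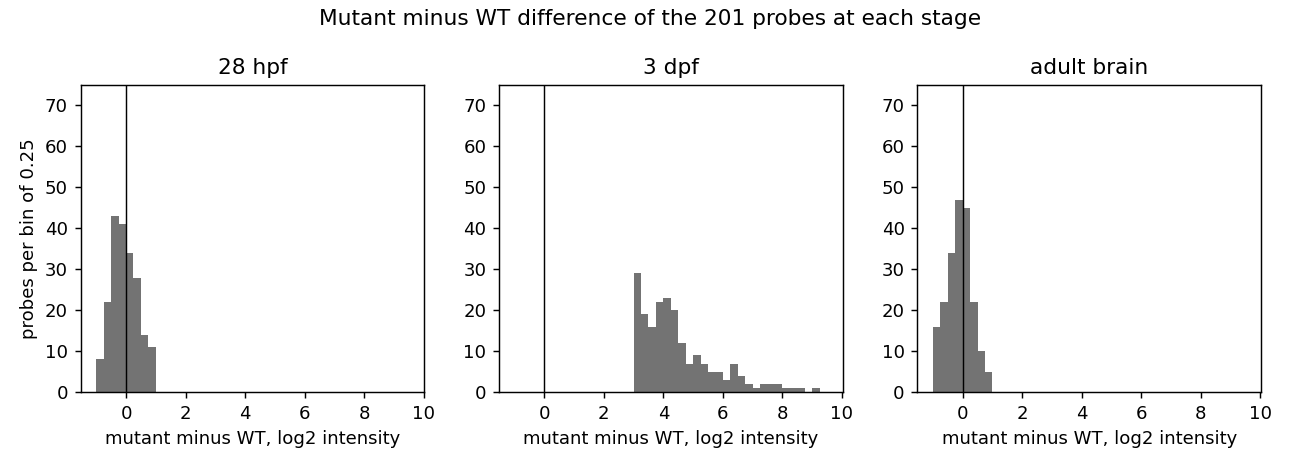
Number of probes (vertical axis, per bin of 0.25) by the mutant minus WT difference in mean log2 intensity (horizontal axis) at 28 hpf, at 3 dpf and in adult brain. The 3 dpf differences start at 3.00 and reach 9.24, while those at the other stages lie between -0.99 and 0.98, as the rule required.

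The probe with the largest difference on log2 of the intensity plus 50 was A_15_P130321. Its intensity was 36182, 38883 and 34406 in 3 dpf mutants and 55.7, 60.9 and 64.9 in their WT siblings. The means were 36490 ± 2254 (SD, n = 3) and 60.5 ± 4.63 (SD, n = 3), a log2 difference of 9.24, or 604-fold. The standard error of 0.65 comes from the spread pooled over all groups. Within the 3 dpf groups alone the SD of log2 intensity was 0.10. With 50 added to each intensity the difference was 8.37. At 28 hpf the 8 arrays lay between 52.5 and 75.7, at the level of WT larvae. Adult brain gave 948, 549 and 101 in mutants and 1514, 364 and 227 in WT siblings. The adult arrays of both genotypes overlapped and were spread widely, and the mean difference there was -0.42. Its standard error of 0.65 rests on the pooled spread and understates the spread between these adult arrays.

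A_15_P148761 had the largest difference on that scale among the probes that were dim in all other groups, and was chosen with its values in view. It read 7919, 7734 and 6394 in 3 dpf mutants and 36.5, 39.7 and 43.4 in WT larvae. The means were 7349 ± 832 (SD, n = 3) and 39.9 ± 3.47 (SD, n = 3). The log2 difference was 7.52 (standard error 0.35, from the pooled spread), or 6.36 on log2 of the intensity plus 50. No array of another group exceeded 100.3. At 28 hpf mutants read 18.4 to 29.0 and WT siblings 25.8 to 52.3, and adult brains 33.2 to 99.1 and 58.4 to 100.3, with overlap at both stages.

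**Figure D3:**
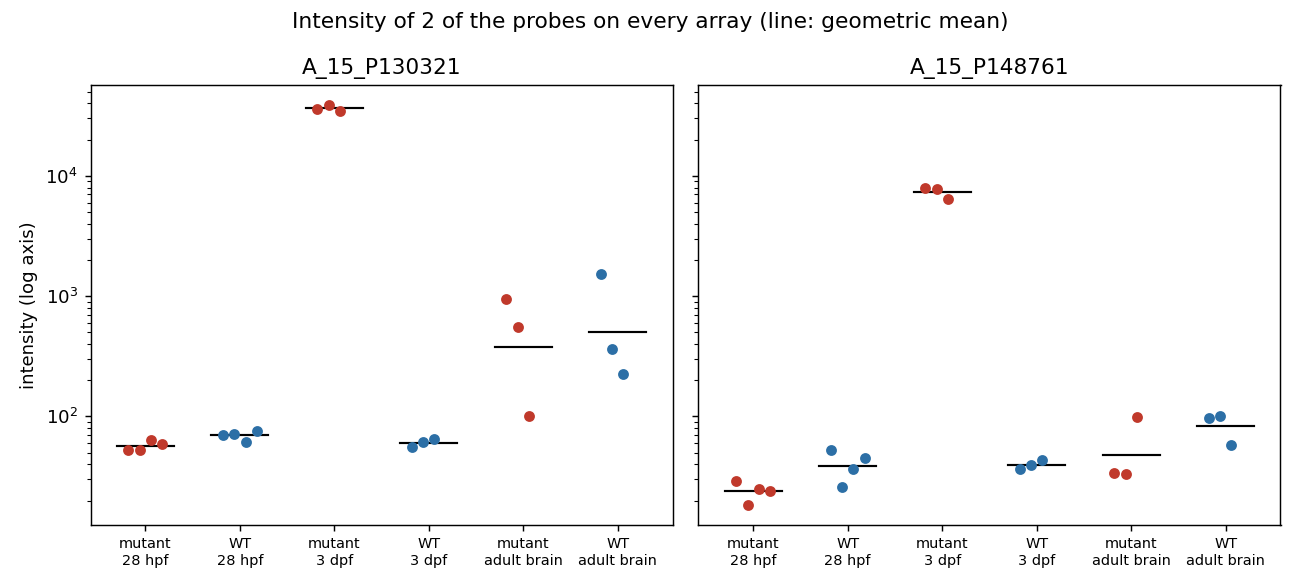
Intensity (vertical log axis) of A_15_P130321 and A_15_P148761 on every array, by group (horizontal axis), with mutants in red, WT siblings in blue and a line at each geometric mean. The 3 dpf mutants stand apart in both, and the adult brains of A_15_P130321 spread from 101 to 1514.

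The 201 probes differed in their level outside 3 dpf mutants, and were divided by whether the mean intensity of a group reached 100, as 64.1% to 64.4% of all probes did in each group. An intensity also depends on how well a probe binds, so this division describes the readings and not amounts of RNA. The largest class, of 109 probes (54.2%), stayed under 100 in all 5 other groups. Its median intensity was 363 in 3 dpf mutants and 15.9 in WT larvae, 12.9 in both genotypes at 28 hpf, and 19.9 and 22.8 in mutant and WT adult brain. The median difference at 3 dpf in this class was 4.44, and 2.52 on log2 of the intensity plus 50. The division itself set the low group means. A single array could still read higher, as 1 probe did with 288 on 1 WT array at 28 hpf.

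A second class of 43 probes (21.4%) reached 100 in both genotypes of adult brain but not at 28 hpf or in WT larvae. The median intensity was 402 in mutant and 397 in WT brains, against 675 in 3 dpf mutants and 45.9 in WT larvae, and 26.0 and 29.2 in mutants and WT siblings at 28 hpf. In 24 of the 43, the 3 dpf mutant arrays exceeded all 17 other arrays, where 5.24% of all probes did so, but the rule used those arrays. In 21 further probes every group reached 100. Their medians were 7931 in 3 dpf mutants, 331 in WT larvae, 253 and 273 at 28 hpf and 965 and 732 in adult brain, and in 15 of the 21 the 3 dpf mutant arrays exceeded all others, which the rule also favours. The 3 probes bright at 28 hpf but not in adult brain or WT larvae had differences of 3.15 to 3.92 at 3 dpf. The other 25 probes had other combinations.

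**Figure D4:**
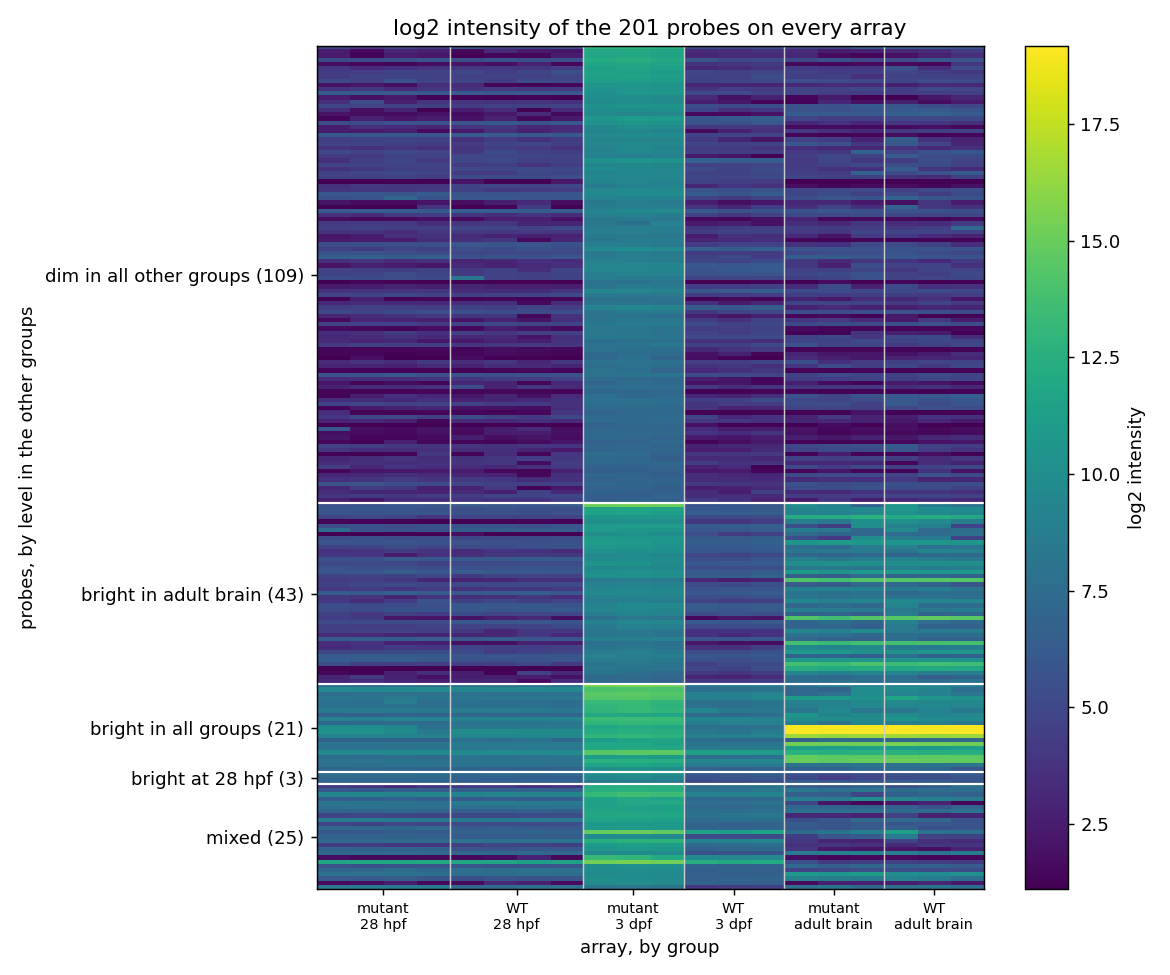
Log2 intensity (colour) of the 201 probes (rows, in the 5 classes named at the left with their numbers) on the 20 arrays (columns, by group). The 109 probes at the top are dim outside 3 dpf mutants, and the 43 below them are also bright in the adult brain of both genotypes.

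The 3 dpf mutant arrays exceeded all 17 other arrays for 174 of the 201 probes, where 5.24% of all probes did so. Of the other 27, all 6 adult arrays lay above the 3 dpf mutants for 21 probes (43.5% of all probes), and adult and 3 dpf mutant arrays overlapped for 6. All 8 arrays at 28 hpf lay below the 3 dpf mutant arrays for 200 probes (25.4% of all probes). The rule chose probes for high 3 dpf mutant values, so nothing is read from these shares. "Raised" refers to the WT siblings, and for 27 probes the 3 dpf mutant arrays did not exceed all others.

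In WT siblings the mean log2 intensity of 128 of the 201 probes moved by less than 1 between 28 hpf and 3 dpf. It rose by 1 or more for 53 and fell by 1 or more for 20. The median change was 0.19, against -0.08 over all probes. In mutants the mean log2 intensity rose by 1 or more for 200 probes and by 3 or more for 179. The median change there was 4.76, against -0.17 over all probes. The share of all probes that moved as far was not counted. The 3 dpf arrays chose the probes, so these changes are not independent of the rule. The mean intensity was under 10 for 57 probes in WT siblings at 28 hpf and for 40 in WT larvae. For such dim probes a log2 change depends on the bottom of the scale. On the 3 dpf WT arrays 14 probes were lower than on any of the 17 other arrays (3.74% of all probes), which the rule also favours.

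One probe showed a WT level that fell rather than a mutant level that rose, and was picked out with its values in view. It read 292, 313 and 280 in 3 dpf mutants and 14.2, 19.1 and 22.0 in WT larvae, a log2 difference of 4.02. At 28 hpf the readings were 368, 369, 385 and 402 in mutants and 158, 172, 230 and 235 in WT siblings, and adult brains lay between 162 and 281. Only the WT larvae were low. The 3 dpf mutants lay between the mutants at 28 hpf and most adult brains.

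Another probe, also picked out afterwards, rose between 28 hpf and 3 dpf in both genotypes. It read 10138, 8052 and 4572 in 3 dpf mutants and 852, 705 and 880 in WT larvae, and at most 7.43 at 28 hpf and in adult brain. With 50 added to each intensity, WT siblings went up from 28 hpf to 3 dpf by 3.99 on the log2 scale, and mutants were a further 3.08 above them. Outside 3 dpf every sample read close to the lowest intensity in the table, so the rise is not given on the plain log2 scale.

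The probe with the highest adult readings among the 201 lay at the top of the scale in adult brain. Its adult arrays read 564866, 548222 and 548222 in mutants and 564866, 564866 and 589725 in WT siblings, the last being the highest value in the table. Quantile normalization gives the brightest probes of every array the same few values, so these readings mark ranks. At 3 dpf it read 4841, 5503 and 5356 in mutants and 329, 282 and 383 in WT larvae, a log2 difference of 3.99. At 28 hpf mutants read 1315, 1304, 849 and 347 and WT siblings 844 to 889.

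The limit of 1 at the other stages does not show that the genotypes were alike there. At 28 hpf the difference was above 0 for 87 of the 201 probes and below 0 for 114, with a median of -0.05. The mutant arrays all exceeded the WT arrays for 22 probes (22.7% of all probes did so) and all lay below them for 35 (20.4% of all probes). In limma 36 passed an adjusted p of 0.05, 12 higher and 24 lower in mutants, where 34.5% of all probes passed, 18.7% higher and 15.8% lower. Since the rule removed every difference of 1 or more, nothing is read from the lower share.

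In adult brain the difference was above 0 for 82 probes and below 0 for 119, with a median of -0.05. The genotypes overlapped for 171 probes, the mutant arrays were all higher for 11 (20.1% of all probes) and all lower for 19 (19.7% of all probes). In limma 19 passed, 9 higher and 10 lower in mutants, where 35.5% of all probes passed, 17.6% higher and 17.8% lower. The rule removed every difference of 1 or more here too, so nothing is read from the lower shares. The 95% confidence interval of the difference reached past 1 in size for 78 of the 201 probes at 28 hpf and for 89 in adult brain. For these probes the data do not fix whether a difference of 2-fold was present at those stages. The intervals use the pooled spread, while the spread of the 201 probes was widest in adult brain, so 89 may be too few. The rule kept only differences under 1 in size, so the intervals need not hold at 95%. An interval that stayed within 1 therefore does not show a difference under 2-fold.

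The spread between repeat arrays was described by group. The rule chose these probes by the 3 dpf arrays, on which mutants had to read high, so nothing is read from a smaller SD there. The median SD of log2 intensity between arrays was 0.14 in 3 dpf mutants and 0.20 in WT larvae, 0.20 and 0.19 in mutants and WT siblings at 28 hpf, and 0.29 and 0.34 in adult brain. Over all probes these medians were 0.12, 0.099, 0.096, 0.099, 0.14 and 0.16 in the same order. The spread was widest in adult brain, where single probes reached an SD of 3.02.

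The WT adult brain replicate 1 stood apart on the high side for part of the set. On it 30 of the 201 probes (14.9%) were at least 1 log2 unit above the median of the other WT brains, against 3.09% of all probes. On the other adult arrays this number was 7 to 18. Replicate 3 of WT adult brain had 23 probes (11.4%) as far below, against 2.75% of all probes. Without WT adult brain replicate 1 the rule gave 211 probes, of which 194 were among the 201.

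The level of a stage averaged over both genotypes does not enter the rule at 28 hpf or in adult brain. These 2 stages were compared by a test. The rule still favours probes that read low in WT larvae. In WT siblings 128 of the 201 had moved by less than 1 on the log2 scale since 28 hpf. At 28 hpf the mean intensity lay under the array median for 188 of the 201 probes in mutants and 185 in WT siblings. In adult brain the numbers were 148 and 147. A probe near the bottom of the scale can hardly read lower at another stage, so the shares below are a description. In adult brain 115 of the 201 probes (57.2%) were higher than in 28 hpf embryos at an adjusted p under 0.05 (limma, two-sided, both genotypes averaged), where 45.1% of all probes were higher. Another 37 (18.4%) were lower, where 41.5% of all probes were lower, and 49 did not pass. Of all probes 86.6% passed in one direction or the other. The median difference was 0.79 on the log2 scale over the 201 probes and 0.07 over all probes. The comparison sets dissected brain against whole embryos as well as an age of 1 year against 28 hpf, and the 2 cannot be told apart.

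Of the 201 probes, 59 were called at least 4-fold higher in adult brain (14.9% of all probes) and 10 at least 4-fold lower (14.3% of all probes). At least 8-fold, 36 were called higher (8.62% of all probes) and 5 lower (8.85% of all probes). Without regard to sign, the median size of the difference was 1.3 over the 201 probes and 1.1 over all probes. The differences of all 201 ran from -7.14 to 11.53. All 6 adult arrays lay above all 8 arrays at 28 hpf for 81 probes (40.3%, against 34.4% of all probes) and below them for 25 (12.4%, against 32.4% of all probes). The direction held in each genotype for 112 of the 115 called higher and 35 of the 37 called lower. The rule kept the genotypes within 1 of each other at both stages, which fixes this for differences above 1 in size. Nothing is therefore read from these numbers.

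A_15_P130321 was higher in adult brain than at 28 hpf by 2.79 on the log2 scale (standard error 0.43, adjusted p = 1.1e-05 from limma). The standard error and the p-value rest on the pooled spread. That spread is narrower than the one between its adult arrays, so the p-value does not fully allow for the latter. One part of the rule for named probes asked for a bright level at 28 hpf or in adult brain. This probe met it, so its p-value is given as a description. A_15_P148761, picked from probes dim at both of these stages, was higher by 1.06 (standard error 0.23), given without a test. The classes were drawn by the levels at these stages, so their counts are a description. Among the 109 probes dim outside 3 dpf mutants, 46 were called higher in adult brain (45.1% of all probes) and 21 lower (41.5% of all probes), with a median difference of 0.25. Of the 43 that were bright in adult brain 42 were called higher.

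**Figure D5:**
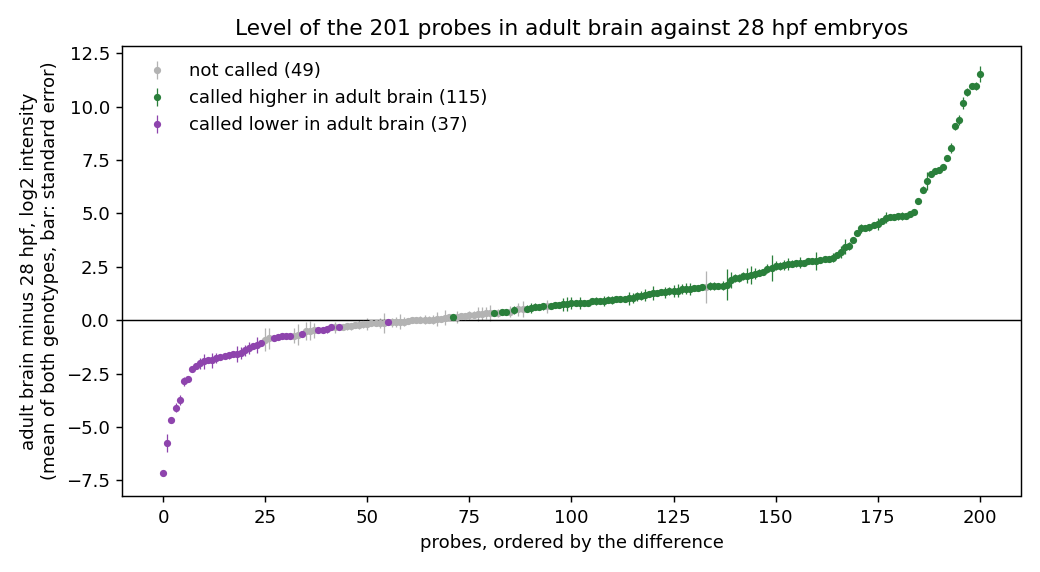
Adult brain minus 28 hpf difference in log2 intensity, averaged over both genotypes (vertical axis, bars show the standard error), for the 201 probes in order of the difference (horizontal axis). Green points were called higher in adult brain (115), purple points lower (37) and grey points were not called (49).

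Pairs of probes with nearly the same profile over the 20 arrays were counted. For 8 pairs, formed by 13 of the 201 probes, the log2 values of the pair differed by a constant with an SD under 0.2, and the lowest SD was 0.093. The median over the probes of the SD to the nearest other probe was 0.47. Whether such pairs measure one transcript was not tested. The limit of 0.2 lies within the median SDs between repeat arrays, 0.14 in 3 dpf mutants to 0.34 in WT adult brain. Those SDs include variation that both probes of a pair may share, which does not enter their difference. Noise particular to a single probe was not measured and may part probes of the same profile. The count therefore does not show that the profiles differ.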

How the data were processed

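The deposited table holds fluorescence intensities of 43603 probes on 20 one-colour arrays, on a linear scale. Per the paper's methods, the authors quantile normalized the scanned values. Once sorted, the log2 values of any rank lay within 0.034 of each other across arrays. For scanner software, background correction and slide, the sources used here give nothing. The re-annotation of probes that the methods describe, with 1 probe kept for each gene, was not applied, and no table used here pairs probes with genes, so gene and marker lists were not applied.

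A linear model of log2 intensity with a mean for each of the 6 groups was fitted to all arrays (limma 3.58.1 under R 4.3.3). It had 14 residual and 1.79 prior degrees of freedom. P-values were adjusted by Benjamini-Hochberg over all 43603 probes, with no filter on dim probes. The fit and the rule were tested on simulated data. Precision is limited by how many arrays there are.

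The members, lists and tests were chosen with earlier results of these data known. The rule for named probes took the largest 3 dpf difference on log2 of the intensity plus 50 among all members and among those bright in another stage, which gave 1 probe for both. Alternatives changed the scale, the thresholds, the dim filter, the variance prior, array weights, the arrays fitted, samples 1 and 1.1, a replicate block and single arrays.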

Additional observations from a re-analysis of the deposited data

Results flagged for a closer look

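At 28 hpf, where each group holds 4 arrays, 8 sets of values were examined for a sample far from the others: the median and the summed intensity of the 201 probes and the intensities of the 2 named probes, in each genotype. In 1 of them a sample stood apart by Dixon's test, which chance does in about 1 of 20 groups. The intensities of the 201 probes summed to 17972 in mutant replicate 3, against 19166, 19198 and 19301 in the other mutants, a gap of 0.899 of the whole range. The probe with the highest adult readings read 347 in that sample and 849 to 1315 in the others. Another of the 201 probes, with adult readings of 509748 to 531920, read 209 there and 658 to 1084 in the others. The sum without these probes was not computed, so nothing is read from it about the 201 probes as a set. The median over the probes was 22.0 in that sample and 22.5 to 23.9 in the others.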

How the results depend on the processing

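The number of probes that met the rule followed its thresholds. It was 408 with a 3 dpf difference of at least 2, 115 with at least 4, and 113 with the limit at the other stages set to 0.5. It was 280 with that limit at 1.5, 231 and 166 with a minimum intensity of 50 and 200, and 196 to 217 when each array was left out in turn, with at least 187 probes shared. On log2 of the intensity plus 50 the median 3 dpf difference was 2.85. On the plain log2 scale it was 4.16, and leaving out each array gave 4.11 to 4.20. In the comparison of adult brain with 28 hpf, leaving out each array gave 110 to 115 probes higher and 35 to 39 lower, and every other alternative stayed within 1.5 times the counts of 115 and 37, the lowest being 100 and 31. The first came from the filter on dim probes, which left 163 of the 201 in the fit. All 201 probes remained called at 3 dpf under each alternative but that filter, where all 163 were called. The rule chose the probes for that difference, so this does not show stability. With a replicate block 112 were higher and 36 lower in adult brain, so the block moved neither count by over 1.5 times. With the block 201 were called at 3 dpf, which the rule likewise favours. Deviations from the group means correlated at -0.097 to 0.062 between arrays of the same number, and 3 of 20 arrays correlated best with an array of their own number. The alternatives for the median difference were chosen after seeing the data.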
